A study of Anthoceros agrestis with 2 samples.

Results

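The CG-rich bins of the Anthoceros agrestis genome were the 1 kb stretches of its chromosomes in which the dinucleotide CG came close to, or passed, the number that the base composition alone would give. The 6 chromosomes, AnagrOXF.S1 to AnagrOXF.S6, were divided from position 1 into 124399 full bins of 1000 bases. In each bin the cytosines listed on both strands gave the C and G content, and the CG ratio was the number of CG dinucleotides observed divided by the number expected if C and G were placed independently. Bins with a ratio of 0.80 or more were called CG-rich, and there were 19293 of them, or 15.5% of all bins. The ratio was computed from the sequence context of the listed cytosines and used no read, so the methylation levels below were not part of the choice. The other 105106 bins were the comparison.

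The methylation data came from Enzymatic Methyl-seq (EM-seq), in which enzymes protect methylated cytosines and deaminate the rest, and an unprotected base appears as thymine in the reads. There was a single group of plants, wild-type thalli (the gametophyte body) of the Oxford strain of this hornwort at an age of 4 weeks, with 2 biological replicates and no treatment. The reports gave methylated and unmethylated reads for every cytosine, with 323429467 calls in replicate 1, 325691541 in replicate 2 and 648374160 in a report for which both were merged. The methylation level of a cytosine was its share of methylated reads, averaged over cytosines with at least 10 reads in the merged report and at least 5 in each replicate, and values without an SD are from the merged report. With 2 replicates of 1 group, an exact two-sided sign-flip test of a difference between kinds of bin cannot give a p below 0.5, and all tests of this kind gave p = 0.5. The spread between the replicates is therefore the only measure of error given. It comes from 2 replicates at another coverage minimum, so the merged value can lie many SDs away from the replicates. Bins, which are not replicates, were not tested against each other.

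In flowering plants, cytosines in CG are methylated by MET1, which copies the mark of the parent strand after replication. Those in CHG (H is A, C or T) are methylated by chromomethylases that bind histone H3 methylated at lysine 9. Those in CHH are methylated by chromomethylases and the de novo enzymes of the DRM family. The paper found orthologs of MET1, chromomethylase and DRM in this hornwort, and proposes that its DRM is inactive in vegetative haploid tissue. Transposable elements usually carry CG and CHG methylation together, whereas the bodies of genes in many flowering plants carry CG methylation alone. Methylated cytosine deaminates to thymine, so that a CG methylated in the germ line tends over many generations to become TG or, on the opposite strand, CA. A shortage of CG is therefore common in DNA that has long been methylated.

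The members themselves differ widely, and the sequences below show the extremes, each given as the longest stretch of at most 300 bases that the reports spell out in full, with every CG in capitals. Bases were read from the listed cytosines and their trinucleotides, and positions are those of the Oxford assembly. The first pair of sequences comes from the unmethylated CG-rich bins with the most CG dinucleotides.
AnagrOXF.S5:12475601-12475791, plus strand: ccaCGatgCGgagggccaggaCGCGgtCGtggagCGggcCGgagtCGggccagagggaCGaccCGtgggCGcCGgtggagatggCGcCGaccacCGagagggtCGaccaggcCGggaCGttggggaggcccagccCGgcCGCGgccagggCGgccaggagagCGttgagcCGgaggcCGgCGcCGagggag
AnagrOXF.S5:4720205-4720380, plus strand: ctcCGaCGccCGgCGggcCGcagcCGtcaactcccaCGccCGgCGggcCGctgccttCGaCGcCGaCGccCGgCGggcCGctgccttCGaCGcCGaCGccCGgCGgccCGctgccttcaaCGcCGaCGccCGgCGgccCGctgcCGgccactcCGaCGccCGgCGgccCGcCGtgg
The next pair comes from the bins methylated in CG and CHG with the most CG dinucleotides.
AnagrOXF.S2:21333084-21333383, plus strand: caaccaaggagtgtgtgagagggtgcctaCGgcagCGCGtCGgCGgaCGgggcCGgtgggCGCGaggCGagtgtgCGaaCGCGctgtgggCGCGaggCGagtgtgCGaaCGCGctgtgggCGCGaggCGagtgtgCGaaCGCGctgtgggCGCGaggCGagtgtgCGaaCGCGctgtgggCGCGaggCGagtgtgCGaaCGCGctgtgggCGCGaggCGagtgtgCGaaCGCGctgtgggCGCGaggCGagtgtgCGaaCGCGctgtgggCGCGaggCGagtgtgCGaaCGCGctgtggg
AnagrOXF.S1:4814761-4814865, plus strand: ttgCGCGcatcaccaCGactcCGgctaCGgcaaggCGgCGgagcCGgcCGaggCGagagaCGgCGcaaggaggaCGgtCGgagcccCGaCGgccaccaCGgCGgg
The third pair comes from bins with CG but no CHG methylation, a combination that was rare among CG-rich bins.
AnagrOXF.S1:31484403-31484481, plus strand: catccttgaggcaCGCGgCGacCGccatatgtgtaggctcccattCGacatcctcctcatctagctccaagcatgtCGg
AnagrOXF.S6:9456852-9456910, plus strand: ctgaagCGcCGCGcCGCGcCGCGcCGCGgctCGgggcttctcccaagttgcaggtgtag
The last 3 come from the bins with the highest CG ratio.
AnagrOXF.S2:26434710-26434775, plus strand: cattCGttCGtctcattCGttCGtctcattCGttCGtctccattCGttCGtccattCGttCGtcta
AnagrOXF.S6:11038381-11038430, plus strand: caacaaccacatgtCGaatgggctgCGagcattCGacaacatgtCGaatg
AnagrOXF.S2:22996018-22996045, plus strand: cctcagtaggtgaCGgcatCGttgtgtg

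Both unmethylated bins lay on chromosome 5, and no CG read in either was methylated. Their covered CHG and CHH sites also had a level of 0%. The bin from 12475001 to 12476000 had 143 CG dinucleotides, a GC content of 71.9% and a ratio of 1.11. Its CG level was 0% over 140 covered sites in the merged report, 0% in replicate 1 and 0% in replicate 2, and its CHG level was likewise 0% in the merged report and in both replicates. Those CG sites had 1591 reads summed over sites, and a count of 0 in 1591 allows a level of up to 0.189%. This limit covers counting error only and takes the counts as independent, although a single read can cover several sites. This bin overlaps the gene model AnagrOXF.S5G288500 in the part of the gene list that was used here, and annotation was not used for the other bins. The bin from 4720001 to 4721000 had 142 CG dinucleotides, a GC content of 73.2% and a ratio of 1.06. It had 0 methylated of 1933 CG reads over 147 sites, which on the same assumption allows up to 0.155%. It also had 0 of 1486 CHG reads, which allows up to 0.202%. Its sequence repeats itself, with 63.8% of bases equal to the base 30 positions on, against a median best match of 32.4% over all CG-rich bins.

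The methylated bin from 21333001 to 21334000 on chromosome 2 was of the same richness as the unmethylated ones. It held 158 CG dinucleotides at a GC content of 70.1% and a ratio of 1.29. Its CG level was 95.004% in the merged report over 60 sites, 98.6% in replicate 1 and 92.0% in replicate 2. Its CHG level was 59.4% in the merged report over 29 sites, 60.6% in replicate 1 and 54.9% in replicate 2. This bin is built from a unit of 30 bases that repeats along it, with 79.2% of bases equal to the base 30 positions on. Of its 100-base windows, 83.7% occurred more than once in the assembly, a count that includes copies within the bin itself. In the printed stretch 783 of 796 CG reads and 125 of 290 CHG reads were methylated. The bin from 4814001 to 4815000 on chromosome 1 had 144 CG dinucleotides but only 1.201 reads per cytosine. Its 14 covered CG sites had a level of 98.9% and its 8 covered CHG sites a level of 84.7%, and the stretch printed had no read.

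Of this last pair with CG methylation only, the bin from 9456001 to 9457000 on chromosome 6 was well covered. It had 74 CG dinucleotides and a CG level of 96.2% over 81 sites, with 96.6% in replicate 1 and 95.4% in replicate 2. Its CHG level was 2.28% over 69 sites, with 3.45% in replicate 1 and 3.63% in replicate 2. In the printed stretch 126 of 131 CG reads but 3 of 80 CHG reads were methylated. The bin from 31484001 to 31485000 on chromosome 1 had 90 CG dinucleotides, and its class rested on 11 CG sites at 98.3% and 15 CHG sites at 0%, none of them in the printed stretch.

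The bins of highest ratio could not be given a methylation level. The bin from 26434001 to 26435000 on chromosome 2 had a ratio of 2.26 and 165 CG dinucleotides, in a short repeat, with 54.6% of bases equal to the base 4 positions on. It had 54 reads over all its cytosines together, 32 of them at CG, of which 18.8% were methylated. The bin from 11038001 to 11039000 on chromosome 6 had a ratio of 1.84 with a GC content of 32.3% and 48 CG dinucleotides, and 99.0% of its 99 CG reads were methylated. The bin from 22996001 to 22997000 on chromosome 2 had a ratio of 1.82 and no read.

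Over all members the ratio had a median of 0.886 and reached 2.26, whereas the other bins had a median of 0.564. CG-rich bins held a median of 62 CG dinucleotides, between 12 and 233, and other bins a median of 32. The GC content had a median of 52.9% in CG-rich bins, with 10th and 90th percentiles of 41.7% and 62.9%, against 49% in other bins, with 41.3% and 55.3%. CG-rich bins were therefore found in AT-rich as well as in GC-rich DNA. The dinucleotides CA and TG, the products of deamination of CG, were counted against their own expectation. Their ratio had a median of 1.08 in CG-rich bins and 1.27 in other bins. A cytosine followed by G is not followed by A, so part of this difference follows from the rule.

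The composition of CHG sites differed too. CCG, in which the outer cytosine is CHG and the inner is CG, made up a median of 37.1% of the CHG sites of a CG-rich bin and 16.8% of those of other bins, and since a CCG contains a CG, part of this follows from the rule. Windows of 100 bases that occurred more than once in the assembly made up a mean of 17.8% of CG-rich bins and 12.0% of other bins. Tandem repetition, taken as at least 50% of bases equal to the base at a fixed distance of at most 150 bases, was found in 0.549% of CG-rich bins and in 0.371% of other bins. Among the 296 bins with a ratio of 1.2 or more it was found in 13, or 4.39%. The limit of 50% was set after the values were seen.

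CG-rich bins were spread over all chromosomes. They made up 15.1% of the bins of chromosome 1, 15.01% of chromosome 2, 14.9% of chromosome 3, 14.97% of chromosome 4, 14.2% of chromosome 5 and 21.3% of chromosome 6. In 121 full blocks of 1 Mb the share had a median of 14.4%. It was lowest, at 9.1%, from 1000001 to 2000000 on chromosome 1 and highest, at 38%, from 10000001 to 11000000 on chromosome 6.

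Reads were thinner over CG-rich bins, which decides how many of them have a level at all. CG-rich bins had a median of 8.81 reads per cytosine and other bins 10.1. No read fell on 2620 CG-rich bins, or 13.6%, and on 2271 other bins, or 2.16%. A bin was scored when at least 5 CG and 5 CHG sites were covered, and 13805 CG-rich and 98128 other bins were. The 5488 CG-rich bins left out were 28.4% of the members, against 6978 other bins, or 6.64%. The share left out was larger among CG-rich bins in 126 of 127 blocks of 1 Mb. It grew with the ratio, with 16.6% of bins not scored at ratios of 0.8 to 0.9, 33.6% at 0.9 to 1.0, 58.0% at 1.0 to 1.2 and 60.5% at 1.2 or more.

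Both GC content and repeats moved with this loss. Below a GC content of 35%, 14.3% of CG-rich bins and 14.7% of other bins were not scored. From 60% on, 40.2% of CG-rich bins and 4.59% of other bins were not scored, with a median of 5.57 reads per cytosine in CG-rich bins and 9.05 in other bins. Among bins with under 10% repeated windows, 12.3% of 11813 CG-rich bins and 0.708% of 78563 other bins were not scored. Among bins with at least 50% repeated windows, 64.8% of 2805 CG-rich bins and 48.9% of 10286 other bins were not scored. The CG-rich bins left out also had the most CCG, a median of 61.5% of their CHG sites, against 34.3% in CG-rich bins methylated in CG and CHG. The part of base composition and of repeats in the missing reads was not tested.

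The reads that did fall on unscored CG-rich bins were mostly methylated. A CG read was present in 2821 of these bins, and of 258882 CG reads 83.6% were methylated, with 84.2% in replicate 1 and 83.0% in replicate 2. At CHG 60.5% of reads were methylated (60.5% ± 1.26 in the replicates, SD, n = 2). In unscored other bins 77.8% of CG reads (77.8% ± 0.697, SD, n = 2) and 51.7% of CHG reads (51.7% ± 0.862, SD, n = 2) were methylated. Levels and shares of scored bins therefore leave out a set of CG-rich bins whose reads were mostly methylated.

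**Figure D1:**
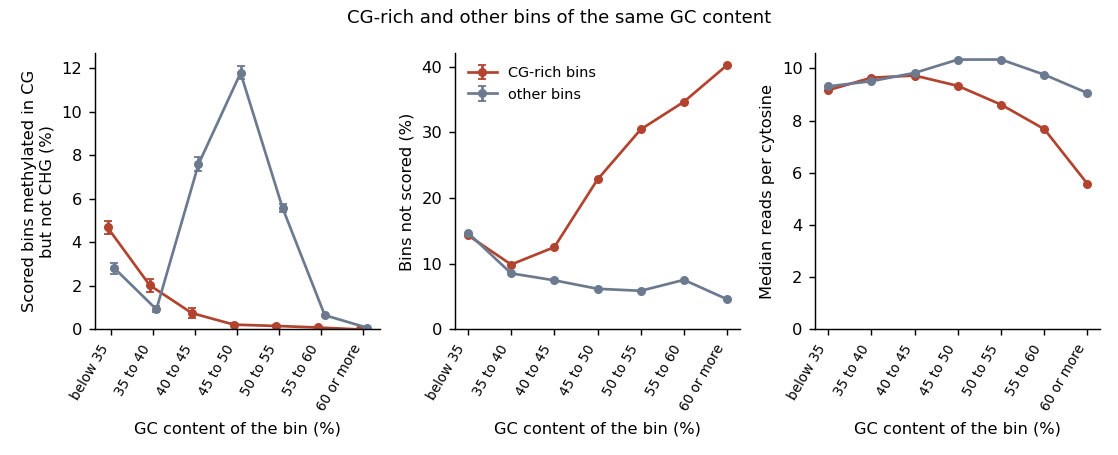
CG-rich bins (red) and other bins (grey) in strata of GC content, from below 35% to 60% or more. Left, the share of scored bins methylated in CG but not CHG, with the mean and SD of 2 replicates. Centre, the share of bins not scored in the merged report. Right, the median reads per cytosine in the merged report. At 45% to 50% GC the share methylated in CG but not CHG was 0.223% in CG-rich bins and 11.8% in other bins, and from 60% on 40.2% of CG-rich bins were not scored.

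Scored bins were sorted by their CG and CHG levels. Of the scored CG-rich bins, 6198 were methylated in both contexts (CG at 50% or more, CHG at 30% or more) and 5670 were unmethylated (both below 5%). Most of the rest were partly methylated, with 1485 bins, and 402 had CG at 50% or more with weak CHG methylation between 10% and 30%. Only 50 CG-rich bins had CG at 50% or more and CHG below 10%, the class called methylated in CG but not CHG. This was the smallest class of CG-rich bins.

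Such bins made up 0.4002% of scored CG-rich bins in replicate 1 and 0.422% in replicate 2, against 7.49% of scored other bins in replicate 1 and 7.20% in replicate 2. The share was 0.362% in CG-rich bins and 7.34% in other bins in the merged report, beside 6.48% of all scored bins. The difference of CG-rich minus other bins was -6.93 ± 0.217 percentage points (SD, n = 2), far beyond the spread of the replicates (exact sign-flip test, p = 0.5, the smallest possible). It was lower among CG-rich bins in 126 of 127 blocks of 1 Mb, and in the remaining block neither kind of bin had more. The 50 bins had a median CG level of 64.8% and a median CHG level of 6.81%, close to the limits of the class. Of those scored in all 3 reports, 25 of 49 CG-rich bins and 6234 of 7176 other bins had this class in all 3.

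Bins methylated in CG and CHG were more frequent among CG-rich bins as a whole, but not among those below 45% GC. They made up 45.8% of scored CG-rich bins in replicate 1 and 45.1% in replicate 2, against 37.0% of scored other bins in replicate 1 and 36.5% in replicate 2. The merged report gave 44.9% of CG-rich bins and 36.6% of other bins, beside 37.7% of all scored bins. The difference was 8.69 ± 0.215 percentage points (SD, n = 2; exact sign-flip test, p = 0.5). In the merged report it was 8.26 points, against 3.04 points when a CHG level of 50% was required, 4.39 points in bins with under 10% repeated windows and 18.7 points for ratios of 1.00 or more. The shares were 46.2% ± 4.40 in CG-rich bins and 56.0% ± 2.92 in other bins below 35% GC, 61.1% ± 1.30 in CG-rich bins and 71.9% ± 1.94 in other bins at 35% to 40%, and 57.4% ± 1.28 in CG-rich bins and 60.2% ± 0.468 in other bins at 40% to 45% (SD, n = 2). At 45% to 50% they were 49.6% in CG-rich bins and 31.3% in other bins of the merged report, and CG-rich bins also had the larger share in the strata above. CG-rich bins had the larger share in 101 of 127 blocks of 1 Mb.

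Unmethylated bins made up 40.2% of scored CG-rich bins in replicate 1 and 40.4% in replicate 2, against 39.2% of scored other bins in replicate 1 and 39.4% in replicate 2. In the merged report they were 41.1% of CG-rich bins and 39.6% of other bins, beside 39.8% of all scored bins, so the share of CG-rich bins was near that of all bins. The difference was 0.956 ± 0.0417 percentage points (SD, n = 2; exact sign-flip test, p = 0.5), but it did not keep its direction. In the merged report it was 1.44 points. With a coverage minimum of 5 reads it was -0.711 points there. Once other bins were weighted to the GC content of CG-rich bins it was -4.32 points. Partly methylated bins were 10.8% of scored CG-rich bins and 14.5% of other bins, beside 14.1% of all scored bins, and bins with weak CHG methylation were 2.91% of CG-rich bins and 1.86% of other bins, beside 1.99% of all scored bins. Classes agreed between replicates in 93.1% of 13536 CG-rich bins and 93.2% of 97237 other bins scored in all 3 reports.

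**Figure D2:**
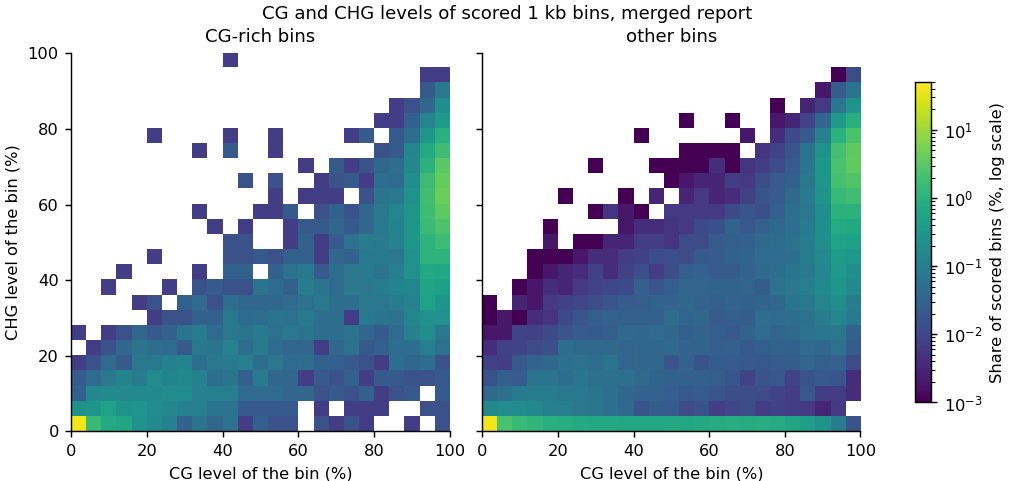
Scored 1 kb bins by CG level (horizontal axis, percent) and CHG level (vertical axis, percent) in the merged report, for the 13805 scored CG-rich bins (left) and the 98128 scored other bins (right). Colour gives the share of the scored bins of a panel in squares of 4 by 4 percentage points, on a log scale. The band along the lower edge of the right panel, CG methylation without CHG methylation, is sparse in the left panel, which holds 50 bins of this class.

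Along the CG ratio, bins with CG but no CHG methylation became rarer from a ratio of 0.2 up to the CG-rich range. Below 0.2 they were 2.90% ± 0.547 of scored bins (SD, n = 2), which rests on 4 of 149. Bins methylated in CG but not CHG were 24.5% ± 1.098 of scored bins at ratios of 0.2 to 0.3, 24.0% ± 0.587 at 0.3 to 0.4, 13.7% ± 0.393 at 0.4 to 0.5, 4.53% ± 0.108 at 0.5 to 0.6, 0.996% ± 0.0234 at 0.6 to 0.7 and 0.360% ± 0.0251 at 0.7 to 0.8 (SD, n = 2). This class was thus already rare below the limit of 0.80. Within the CG-rich range the share was 0.348% ± 0.00766 at 0.8 to 0.9, 0.414% ± 0.103 at 0.9 to 1.0 and 0.602% ± 0.00384 at 1.0 to 1.2 (SD, n = 2). The merged report gave 0.257%, 0.320% and 0.930% in that order, on 23, 11 and 12 bins of the class. At 1.2 or more the share was 2.87% ± 1.70 (SD, n = 2), which rests on 4 of 117 scored bins.

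Methylated and unmethylated bins exchanged places within the CG-rich range. Bins methylated in CG and CHG were 43.2% ± 0.419 of scored bins at ratios of 0.8 to 0.9, 46.8% ± 0.599 at 0.9 to 1.0, 56.0% ± 0.836 at 1.0 to 1.2 and 60.9% ± 2.43 at 1.2 or more (SD, n = 2). Unmethylated bins were 43.7% ± 0.175, 38.2% ± 0.195, 25.2% ± 0.371 and 9.46% ± 0.417 in the same order (SD, n = 2). Below the CG-rich range unmethylated bins were 48.0% ± 0.221 at ratios of 0.6 to 0.7 and 47.1% ± 0.00355 at 0.7 to 0.8 (SD, n = 2). The merged report gave 48.4% at 0.6 to 0.7 and 47.4% at 0.7 to 0.8, the latter far outside the SD of the replicates. The limit of 0.80 itself marked no step. Bins just inside it, with ratios of 0.80 to 0.82, had a CG level of 30.9% and 45.9% of unmethylated bins among 2401 scored, and those just outside, from 0.78 to 0.80, had 31.3% and 46.2% among 2789 scored.

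**Figure D3:**
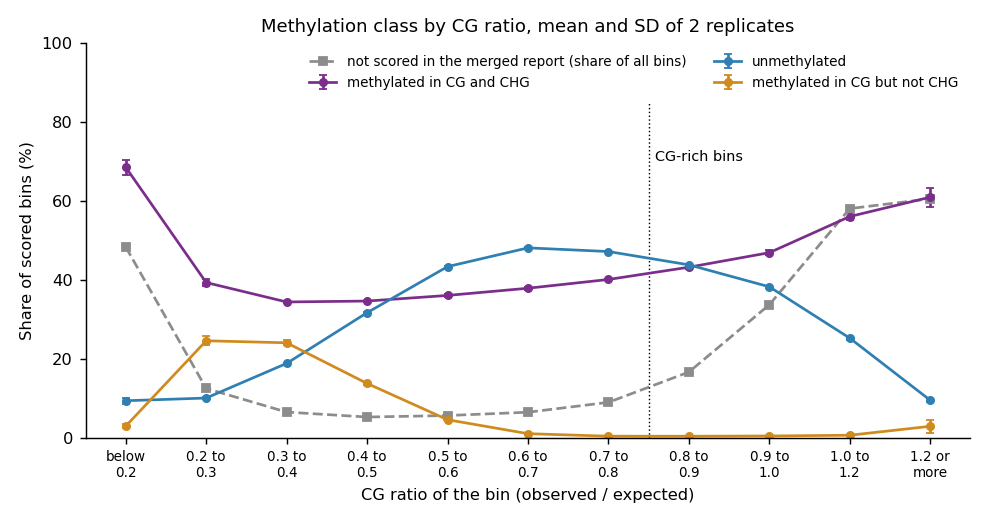
Share of scored bins (percent) in each methylation class by CG ratio in bands from below 0.2 to 1.2 or more, with the mean and SD of 2 replicates. The dashed line gives the share of all bins not scored in the merged report, and the dotted line marks the limit of 0.80. Bins methylated in CG but not CHG were 24.5% at ratios of 0.2 to 0.3 and 0.348% at 0.8 to 0.9, and unmethylated bins were 43.7% at 0.8 to 0.9 and 9.46% at 1.2 or more.

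The shortage of bins methylated in CG alone was also present between bins of like GC content from 40% to 60%. At 40% to 45% GC they made up 0.754% ± 0.229 of scored CG-rich bins and 7.59% ± 0.318 of other bins (SD, n = 2). At 45% to 50% GC the shares were 0.223% ± 0.0538 in CG-rich bins and 11.8% ± 0.298 in other bins, and at 50% to 55% they were 0.161% ± 0.0215 in CG-rich bins and 5.57% ± 0.192 in other bins (SD, n = 2). From 60% on the class held 0 of 2040 scored CG-rich bins and 2 of 2392 other bins, too few to compare. In AT-rich DNA the order was the opposite, on few bins of the class. Below 35% GC the shares were 4.69% ± 0.286 in CG-rich bins and 2.82% ± 0.248 in other bins, and at 35% to 40% GC they were 2.04% ± 0.298 in CG-rich bins and 0.923% ± 0.139 in other bins (SD, n = 2). Of the 50 CG-rich bins of this class, 11 lay below 35% GC, among 221 scored, and 17 at 35% to 40%, among 930 scored. Other bins of the class were 37 of 1669 scored below 35% GC and 59 of 5517 scored at 35% to 40%. The median GC content of the 50 was 39.5%, against 47.8% for the 7206 other bins of the class.

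The CG level of CG-rich bins depended strongly on their GC content. It was 79.1% ± 0.0118 below 35% GC, 63.1% ± 1.91 at 40% to 45%, 46.0% ± 1.42 at 45% to 50%, 31.7% ± 1.34 at 50% to 55% and 21.9% ± 1.48 from 60% on (SD, n = 2). In other bins the levels were 81.7% ± 1.03 below 35%, 66.0% ± 1.199 at 40% to 45%, 38.6% ± 1.24 at 45% to 50%, 27.6% ± 1.21 at 50% to 55% and 23.3% ± 1.73 from 60% on (SD, n = 2). Thus CG-rich bins had the higher CG level between 45% and 55% GC and the lower level below 45% and from 55% on. Within the replicates the difference of CG-rich minus other bins was -2.60 ± 1.04 points below 35% GC, 7.41 ± 0.181 points at 45% to 50% and -1.46 ± 0.250 points from 60% on (SD, n = 2).

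Averaged over all covered sites, CG-rich bins were close to the rest of the chromosomes. Their CG level was 36.3% in replicate 1 and 34.2% in replicate 2, against 37.4% in replicate 1 and 35.6% in replicate 2 for other bins. The merged report gave 33.95% over 835544 CG sites of CG-rich bins and 35.7% over 3801404 sites of other bins. The difference of CG-rich minus other bins was -1.26 ± 0.210 percentage points in the replicates (SD, n = 2; exact sign-flip test, p = 0.5). In the merged report it was -1.78 points. Its direction there depended on the calculation, with 0.861 points after weighting to GC content, 2.74 points as a mean over bins and 5.33 points with at least 20 reads. In 72 of 127 blocks of 1 Mb the level was lower in CG-rich bins and in 55 it was higher.

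At CHG the level was 21.6% in replicate 1 and 20.1% in replicate 2 for CG-rich bins, and 20.5% in replicate 1 and 19.2% in replicate 2 for other bins. The difference was 1.02 ± 0.180 percentage points in the replicates (SD, n = 2; exact sign-flip test, p = 0.5). In the merged report it was 0.713 points, and -0.116 points in bins with under 10% repeated windows. At CHH the level was 0.751% in replicate 1 and 0.736% in replicate 2 for CG-rich bins, and 0.783% in replicate 1 and 0.775% in replicate 2 for other bins, a difference of -0.0356 ± 0.00507 points (SD, n = 2; exact sign-flip test, p = 0.5). In the merged report the CHH difference was -0.0363 points, and 0.138 points for ratios of 1.00 or more. These means combine very different bins and single sites. Of the CG sites in CG-rich bins, 62.1% had no methylated read, 33.8% had a level of 80% or more and 1.99% lay between 20% and 80%, against 58.9%, 34.8% and 3.58% in other bins.

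Bins methylated in CG and CHG were as fully methylated at CG when they were CG-rich as otherwise, but had a lower mean level over their CHG sites. Their CG level was 94.3% ± 0.343 in CG-rich bins and 94.2% ± 0.406 in other bins (SD, n = 2), a difference of 0.0228 ± 0.0623 points, within the spread of the replicates. Their CHG level was 58.8% ± 0.758 in CG-rich bins and 66.1% ± 0.954 in other bins (SD, n = 2), a difference of -7.26 ± 0.196 points. Their CHH level was 1.59% ± 0.0217 in CG-rich bins and 2.002% ± 0.0262 in other bins (SD, n = 2), a difference of -0.410 ± 0.00452 points. The CHG difference was -0.602 ± 0.740 points below 35% GC and -10.7 ± 0.134 points at 45% to 50% GC, and lay between those values in all other strata (SD, n = 2).

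Most of the CHG difference lay in which CHG sites the bins held. Since a CCG contains a CG, part of the CHG difference follows from the rule. CCG was the least methylated of the CHG trinucleotides, at 28.7% ± 0.822 in CG-rich bins and 29.2% ± 0.706 in other bins (SD, n = 2), and it made up 30.6% of the covered CHG sites of the CG-rich bins and 16.9% of those of the other bins. CAG had levels of 74.2% ± 1.08 in CG-rich bins and 75.8% ± 1.29 in other bins, and CTG of 70.3% ± 0.592 in CG-rich bins and 71.6% ± 0.759 in other bins (SD, n = 2). Within a replicate the differences of CG-rich minus other bins were -1.56 ± 0.212 points for CAG, -1.31 ± 0.167 points for CTG and -0.518 ± 0.116 points for CCG (SD, n = 2). When CG-rich bins were given the CHG trinucleotides of other bins, the CHG difference was -1.28 ± 0.137 points (SD, n = 2). The classes were cut at the level over all CHG sites, and how far the CCG share moved bins between classes was not tested. At CHH the mean was lower in CG-rich bins at every trinucleotide. The levels were, at CAA, 4.42% ± 0.0575 in CG-rich bins and 5.42% ± 0.0504 in other bins, at CAT, 1.55% ± 0.0474 in CG-rich bins and 2.19% ± 0.0887 in other bins, and at CTA, 2.73% ± 0.0162 in CG-rich bins and 3.32% ± 0.0468 in other bins (SD, n = 2).

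**Figure D4:**
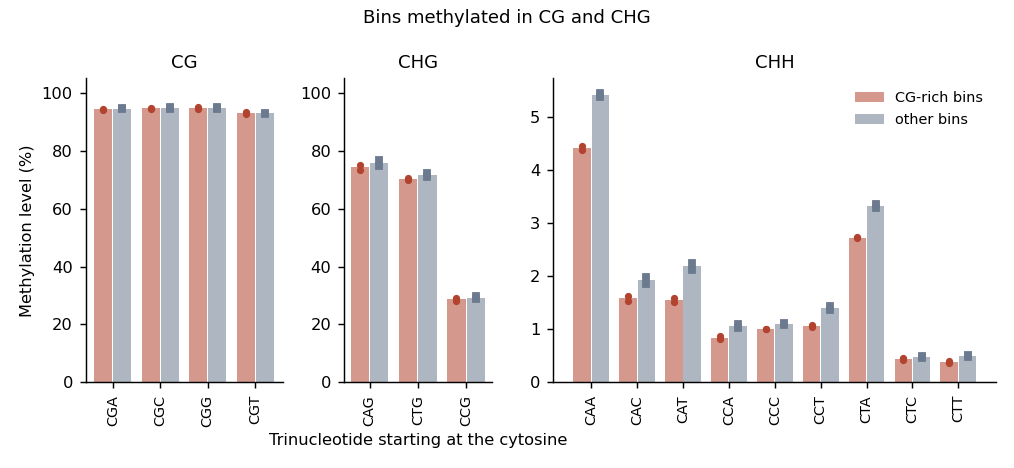
Methylation level (percent) by trinucleotide in bins methylated in CG and CHG, for CG-rich bins (red) and other bins (grey). Bars give the mean of 2 replicates and points the replicates, and the CHH panel has its own scale. The CG levels of the replicates lie between 92.6% and 95.01%, CCG is at 28.7% in CG-rich bins and 29.2% in other bins, and CAA is 4.42% in CG-rich bins and 5.42% in other bins.

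Unmethylated CG-rich bins had very low levels in every context. Their CG level was 0.305% ± 0.0244 and that of other unmethylated bins 0.396% ± 0.00539 (SD, n = 2), a difference of -0.0909 ± 0.0190 points. At CHG the levels were 0.171% ± 0.0132 in CG-rich bins and 0.153% ± 0.00707 in other bins, and at CHH 0.0989% ± 0.00726 in CG-rich bins and 0.0979% ± 0.00783 in other bins (SD, n = 2). The unmethylated CG-rich bins had a median GC content of 55.2%, a median of 66 CG dinucleotides and a mean of 1.78% repeated windows. The CG-rich bins methylated in CG and CHG had a median GC content of 50.2%, a median of 56 CG dinucleotides and a mean of 19.4% repeated windows. The ratio of CA and TG had a median of 1.15 in the unmethylated and 1.07 in the methylated CG-rich bins. It was 1.30 in other unmethylated and 1.21 in other methylated bins, and part of the gap to CG-rich bins again follows from the rule.

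The surroundings of a CG-rich bin had its own methylation state. Of the bins adjacent to unmethylated CG-rich bins, 72.2% were unmethylated, 8.50% were methylated in CG and CHG and 1.55% were methylated in CG but not CHG. For other unmethylated bins the adjacent shares were 74.6%, 4.18% and 3.01% in that order. Of the bins adjacent to methylated CG-rich bins, 74.4% were methylated in both contexts, and for other methylated bins 79.7% were. These shares count unscored neighbours, which were 13.1% next to methylated CG-rich bins and 6.78% next to other methylated bins. Among scored neighbours, 85.4% before and 85.9% after a methylated CG-rich bin were methylated in both contexts. For other methylated bins 85.6% before and 85.4% after were, so the kinds of bin differed little. Bins next to unscored CG-rich bins were themselves unscored in 73.6% of cases, methylated in CG and CHG in 24.2% and unmethylated in 0.784%. Next to unscored other bins the shares were 62.1%, 27.6% and 5.89% in that order. Among scored neighbours alone, 91.1% before and 92.0% after an unscored CG-rich bin were methylated in CG and CHG. For unscored other bins 72.3% before and 73.1% after were.

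**Figure D5:**
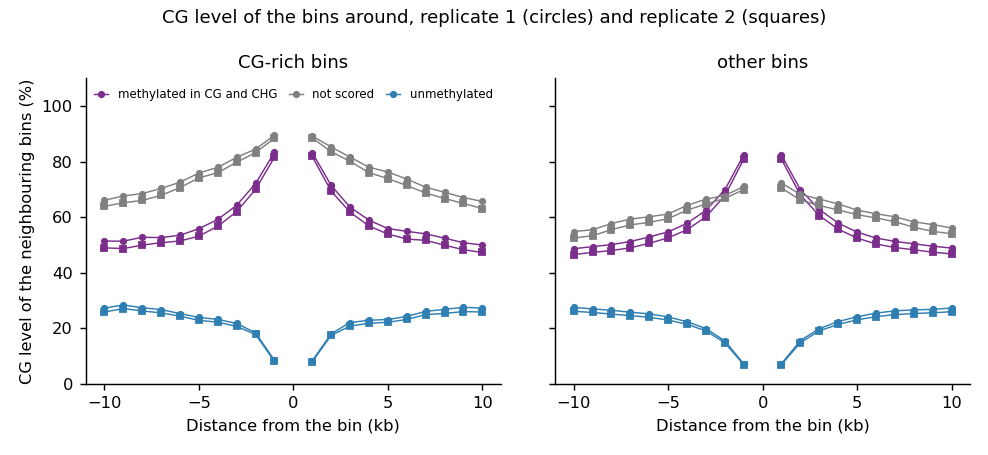
CG level (percent) of the bins at distances of 1 to 10 kb on both sides of bins methylated in CG and CHG (purple), unmethylated bins (blue) and unscored bins (grey), for CG-rich bins (left) and other bins (right), with replicate 1 as circles and replicate 2 as squares. Next to unscored CG-rich bins the CG level was between 88.4% and 89.5% in the replicates, and next to unscored other bins between 69.9% and 72.3%.

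Counting a bin that stood alone as a run of 1, CG-rich bins formed 12439 runs. Of the members, 9053, or 46.9%, stood alone, and 1167, or 6.05%, lay in 79 runs of 10 or more bins. Long runs were poorly covered and heavily methylated. Of the bins standing alone 11.4% were not scored, and their CG level was 31.7% ± 1.31 (SD, n = 2). In runs of 5 to 9 bins 71.4% were not scored and the CG level was 65.6% ± 2.39 (SD, n = 2). In runs of 10 or more 87.3% were not scored, the CG level was 89.4% ± 0.435 (SD, n = 2), 93.2% of the 148 scored bins were methylated in CG and CHG, and no scored bin was unmethylated. Repeated windows made up 11.7% of bins standing alone and 36.0% of bins in runs of 10 or more.

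The longest run covered 48 bins of chromosome 2 from 21290001 to 21338000, with a mean ratio of 1.04, and includes the methylated bin of 30-base repeats shown above. No read fell on 27 of its bins, 10 were scored, and 9 of those were methylated in CG and CHG. Of 13092 CG reads 80.4% were methylated, with 80.1% in replicate 1 and 80.6% in replicate 2. The next run covered 28 bins of chromosome 2 from 15331001 to 15359000, with a mean ratio of 1.08 and 0.15% repeated windows, yet 27 of its bins had no read and the whole run had 10 CG reads. The third covered 27 bins of chromosome 6 from 10831001 to 10858000, with 69.6% repeated windows. Of its 9638 CG reads 77.2% and of its CHG reads 25.7% were methylated, and 2 of its 6 scored bins were methylated in both contexts.

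Chromosome 6, the chromosome with the largest share of CG-rich bins, was methylated along most of its length, and its CG-rich bins followed it. Their CG level was 81.1% ± 0.849, against 80.8% ± 0.941 for its other bins (SD, n = 2), and within the replicates the difference was 0.360 ± 0.0921 points (SD, n = 2). Of its 1290 scored CG-rich bins, 1100, or 85.3%, were methylated in CG and CHG and 89, or 6.90%, were unmethylated, against 81.9% and 7.22% of its other bins. Of the 2512 CG-rich bins of chromosome 6, 48.6% were not scored, against 14.2% of its other bins. On chromosomes 1 to 5, the CG level was 31.5% ± 1.38 in CG-rich bins and 32.9% ± 1.18 in other bins (SD, n = 2), with a difference of -1.48 ± 0.207 points within the replicates (SD, n = 2). In bins methylated in both contexts, the CHG difference of CG-rich minus other bins was -6.80 ± 0.278 points on chromosome 6 and -7.31 ± 0.175 points on chromosomes 1 to 5 (SD, n = 2).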

How the data were processed

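EM-seq libraries of 2 biological replicates were analysed, with a report of both merged. Per the labels and the study's methods, the authors trimmed reads with Trim Galore, aligned them to the Oxford assembly with Bismark and Bowtie2, removed duplicates, and deposited counts of methylated and unmethylated reads for each of 62665502 cytosines. The submitters' processing notes also name SAMtools 1.9 and bedtools 2.27.1. The build of the assembly was taken from the scaffold names.

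The deposited counts were read with pyarrow 21.0.0, analysed in Python 3.11.15 with numba 0.67.0, numpy 2.4.6 and scipy 1.17.1, and plotted with matplotlib 3.10.9. CG ratios used every listed cytosine. Levels are means over sites with at least 10 reads, or 5 in a replicate. Bases were read from cytosines and trinucleotides, which gave 85.3% of all bases, and repeats were 100-base windows found more than once. Scripts were tested on simulated data.

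The members and lists were chosen with earlier results of these data known. Named were the 3 longest runs, the 2 bins with the most CG dinucleotides in each of 3 classes that kept their class in all 3 reports, and the 3 bins of highest ratio with at least 20 CG dinucleotides. Alternatives changed the ratio limit, bin start, coverage, class limits, chromosomes, GC weighting, averaging and replicates. Restricting to bins with under 10% repeated windows was chosen after seeing the data.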

Additional observations from a re-analysis of the deposited data

Results flagged for a closer look

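CG-rich bins also occurred outside the chromosomes compared above, and their signal was not part of any comparison. On 271 unplaced scaffolds there were 1042 full bins with a CG ratio of 0.80 or more. Their CG level was 27.2% over 16145 sites in the merged report, with 29.7% in replicate 1 and 27.2% in replicate 2. The 1563 other bins of unplaced scaffolds had a CG level of 40.1%, with 41.6% in replicate 1 and 40.3% in replicate 2. Of the CG-rich bins 273 were scored, of which 106 were methylated in CG and CHG and 154 were unmethylated. Of the other bins 598 were scored, of which 273 were methylated in CG and CHG and 256 were unmethylated. The origin of these scaffolds was not tested.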

How the results depend on the processing

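Of 96 differences under alternatives, 33 moved by less than the SD of the replicates' differences, 51 moved by more and 12 changed sign. The number of CG-rich bins lay between 3367 and 27430 under its 7 alternatives, and the causes were not tested. The share methylated in CG but not CHG stayed lower in CG-rich bins, between -7.77 and -4.22 percentage points, and the share methylated in CG and CHG stayed higher, between 3.04 and 18.7 points, under all 16 alternatives each. All values below are CG-rich minus other bins in percentage points. The main setting used the merged report and gave -1.78 for CG, 0.713 for CHG and -0.0363 for CHH. For the shares it gave 8.26 for methylated in both contexts, 1.44 for unmethylated and -6.98 for methylated in CG but not CHG. A CG ratio of at least 0.75 gave -3.18 for the CG level, 0.3805 for CHG and -0.0529 for CHH, and 6.997 for the share methylated in both contexts, 3.97 for the unmethylated share and -7.56 for the share methylated in CG but not CHG. A ratio of at least 1.00 left 3367 CG-rich bins and gave 8.78 for CG, 5.17 for CHG, 0.138 for CHH, 18.7 for the share methylated in both, -14.9 for the unmethylated share and -5.41 for the share methylated in CG but not CHG. Bins with under 10% repeated windows, of which 11813 were CG-rich, gave -3.61 for CG, -0.116 for CHG, 0.00410 for CHH, 4.39 for the share methylated in both, 5.68 for the unmethylated share and -7.77 for the share methylated in CG but not CHG. At least 5 reads gave -0.232 for CG, 1.72 for CHG, -0.0294 for CHH, 10.6 for the share methylated in both and -0.711 for the unmethylated share. At least 20 reads gave 5.33 for CG, 4.06 for CHG, 0.0826 for CHH, 5.11 for the share methylated in both, 2.75 for the unmethylated share and -4.43 for the share methylated in CG but not CHG. Weighting other bins to the GC content of CG-rich bins gave 0.861 for CG, 0.965 for CHG, -0.0598 for CHH, 7.26 for the share methylated in both, -4.32 for the unmethylated share and -4.22 for the share methylated in CG but not CHG. Means over bins gave 2.74 for CG, 3.43 for CHG and 0.0306 for CHH, and methylated reads divided by all reads gave -0.0454 for CHH. Chromosomes 1 to 5 gave 1.07 for CHG, -0.0278 for CHH, 2.10 for the unmethylated share and -7.31 for the share methylated in CG but not CHG. An expected number from the product of the cytosines of both strands gave -2.03 for CG, -0.0278 for CHH and 2.44 for the unmethylated share. Bins that started midway between the starts used here gave -0.0283 for CHH and 1.98 for the unmethylated share, and bins with at least 10 CG dinucleotides gave -0.0271 for CHH and 1.27 for the unmethylated share. For the unmethylated share, at most 27 reads per cytosine gave 1.48, at least 10 covered CG and CHG sites 2.37 and both levels below 2% 1.81. For the share methylated in both, at least 10 covered sites gave 7.28 and a CHG level of at least 50% gave 3.04. Single replicates gave -1.41 to -1.12 for CG, 0.894 to 1.15 for CHG, 8.54 to 8.84 for the share methylated in both and 0.926 to 0.985 for the unmethylated share. All differences between kinds of bin were already taken within a replicate or within the merged report. Each replicate gave both kinds of bin, so the differences within a replicate were paired. The labels give a single group of samples, so no groups of plants were compared. The 28.4% of CG-rich bins without enough reads limit every share, and most sites in them have no level at this depth.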
